A study of Mus musculus with 12 samples.

Results

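The phase II conjugation enzymes described here are the glutathione transferases (Gsta, Gstm, Gstp, Gstt and the membrane-bound Mgst genes), the UDP-glycosyltransferases of the Ugt1a, Ugt2a, Ugt2b and Ugt3a subfamilies, called glucuronosyltransferases here, and the cytosolic sulfotransferases (Sult). Members were chosen by gene name, and 70 genes of the 55291 in the count table carried such a name. Of these, 47 had at least 10 counts in at least 3 libraries and were kept: 20 glutathione transferases, 18 glucuronosyltransferases and 9 sulfotransferases. The 20 include Gstm2-ps1, a pseudogene by its name, and coding sequence was found for the other 46 genes. Sult3a1, with 10 counts in 4 libraries, was just inside that limit, and Mgst2, Sult2a2 and Sult2b1, each with 10 counts in 1 library, were just outside it. The 23 genes left out also included Ugt2a1 and Ugt2a2, Sult1c1, and the Sult2a genes other than Sult2a7 and Sult2a8. The rule used names and counts only, and all 47 kept genes also passed the low-count filter of the test.

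Phase II enzymes attach a polar group to a drug, hormone, bile acid, bilirubin or reactive metabolite so that it can be carried out of the cell. Glutathione transferases use glutathione and act mainly on electrophiles, glucuronosyltransferases use UDP-glucuronic acid in the endoplasmic reticulum, and sulfotransferases use the sulfate donor PAPS in the cytosol. The liver is the main site of all of these reactions. In mouse liver many of the genes are under the control of xenobiotic and bile acid receptors and of the sex-dependent pattern of growth hormone.

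RNA sequencing was done on the livers of male C57BL/6 mice that entered the study at 6 weeks of age. The 4 groups of 3 libraries each were a normal diet control (NC), a high-fat diet (D12492) with no exercise (HFD), and the same high-fat diet with training in 1 of 2 forms given in the labels only as AE and RE (HFD+AE and HFD+RE). The high-fat diet was fed for 8 weeks before training, and training then lasted at least 12 weeks. Every exercised mouse was also on the high-fat diet, so the samples hold no exercised group on the normal diet. Nothing in the labels says that the 3 libraries of a group are 3 animals, so each p-value reflects only how far these libraries differ from each other, which may be technical variation.

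The libraries held 44373214 to 77665729 counts, and the 47 genes together took 0.960% to 1.43% of them. Hepatocyte transcripts were abundant: albumin and 5 other hepatocyte markers summed to between 58041 and 122365 CPM (counts scaled by library size) in every library, with the lowest sums in HFD. Among 1 group's libraries, HFD+AE 3 stood apart from HFD+AE 1 and 2, and HFD+RE 3 from HFD+RE 4 and 5, on the first principal component, which held 46.7% of the variance. Results on the exercise groups are therefore also given without HFD+AE 3 and HFD+RE 3.

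Levels below are CPM after TMM scaling, and changes are log2 changes from edgeR's quasi-likelihood test with their standard errors (SE). A gene is called where its Benjamini-Hochberg adjusted p over all 18305 genes tested is below 0.05. Per kilobase of exon sequence, the order of the leading transcripts was Mgst1, Gstm1, Gstp1, Gsta3, Ugt2b5 and Ugt2b36, with mean levels of 1179, 1055, 399.8, 396, 319 and 256 CPM per kilobase over the 12 libraries. Mgst1, a glutathione transferase of the endoplasmic reticulum and outer mitochondrial membrane, had the highest mean level on both scales. Sult2a8, which sulfates bile acids in mouse liver, and Sult1a1, a phenol sulfotransferase, led the sulfotransferases with 216 and 211 CPM per kilobase. Single genes supplied most of some subfamilies: Gstm1 made up 79.6% to 92.7% of the Gstm CPM, and Sult2a8 at least 99.1% of the Sult2 CPM, in every library.

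**Figure D1:**
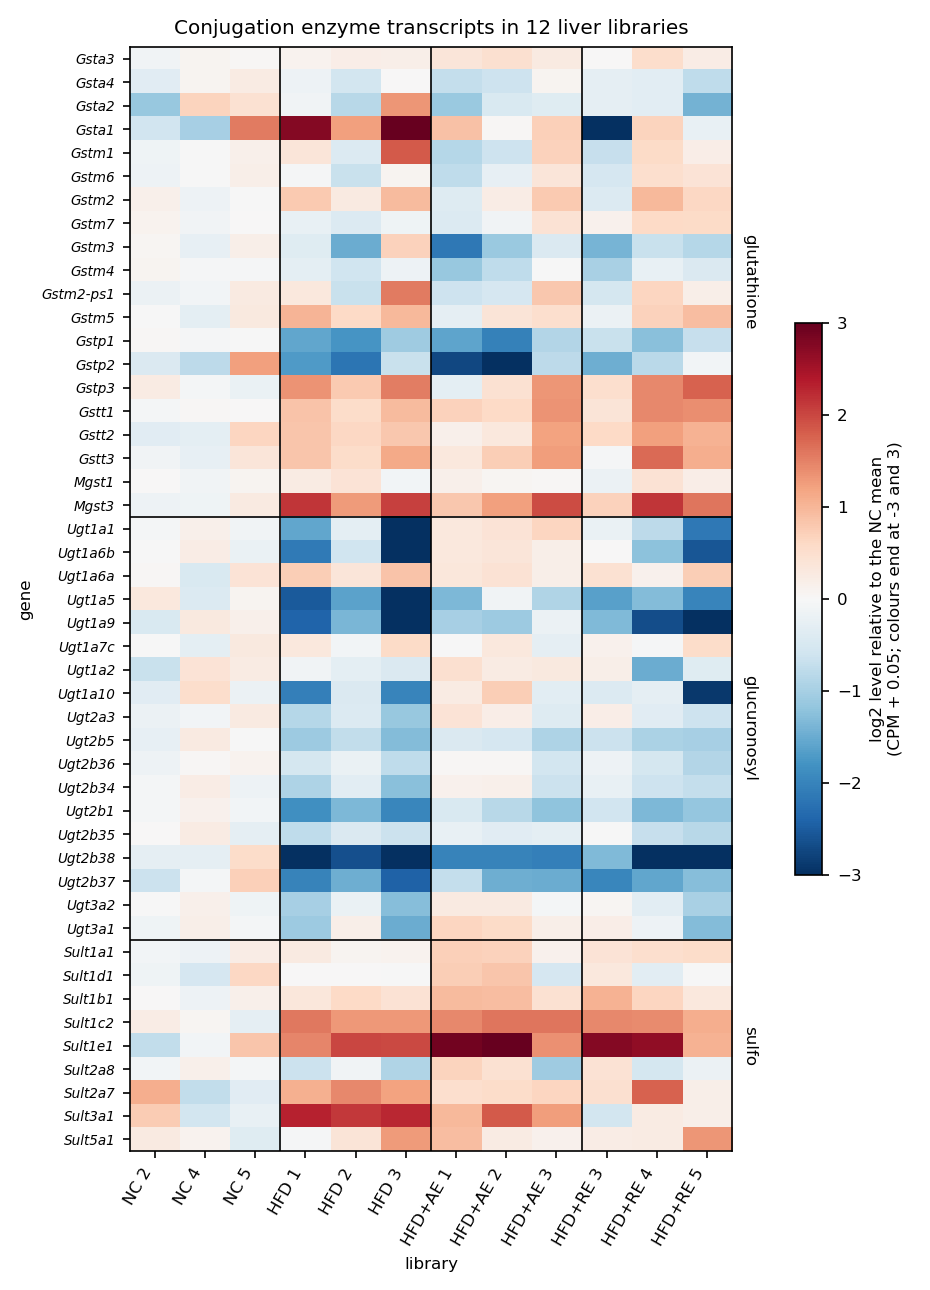
Levels of the 47 transcripts (rows, by class and subfamily) in the 12 libraries (columns), as log2 of CPM plus 0.05 relative to the NC mean, with colours ending at -3 and 3. Most glucuronosyltransferase rows are blue in the 3 HFD libraries, while Ugt1a6a and Ugt1a7c are not, and Mgst3, Gstp3 and Sult1c2 are red there.

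The first comparison asked what the high-fat diet without exercise did to these transcripts. In HFD livers 12 of the 47 genes were called against NC, 25.5% of them, beside 15.6% of all genes tested, and the groups did not overlap for 29 of the 47, beside 46% of all genes. The glucuronosyltransferases were mostly lower and the other classes mostly higher, and the difference between classes was not tested. Of the 18 glucuronosyltransferases 6 fell and 0 rose, and 2 had positive log2 changes, beside 50.7% of all genes, with a median log2 change of -0.92. Of the 20 glutathione transferases 3 rose and 1 fell (median 0.45), and of the 9 sulfotransferases 2 rose and 0 fell (median 0.63), while the median over all genes was 0.01. Over all genes, 8.38% rose and 7.19% fell. One of the risers, Sult3a1, reached 10 counts in 3 HFD libraries and in 1 library elsewhere, so it met the rule for members only through the group where it is high. Without it 11 of 46 genes were called, and 1 of 8 sulfotransferases rose (median 0.54). The count moved with single libraries, as did that of all genes: 4 members were called without HFD 1 (2.6% of all genes), 6 each without HFD 3 (2.21%) or NC 4 (3.06%), and 18 each without HFD 2 (18.8%) or HFD+RE 3 (23.5%). Without HFD+AE 3 and HFD+RE 3, which share the estimate of the spread, 22 were called, beside 33.1% of all genes.

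The class totals, which the most abundant genes dominate, were read without a test. The summed glucuronosyltransferase level was 3587 to 4293 CPM in NC and 1618 to 2722 CPM in HFD, so the groups did not overlap. Glutathione transferases summed to 6471 to 7155 CPM in NC and 6535 to 9876 CPM in HFD, which overlapped. Sulfotransferases summed to 1099 to 1251 CPM in NC and 860 to 1151 CPM in HFD, which also overlapped and had the lower mean in HFD, although 7 of the 9 genes had positive log2 changes. Glucuronosyltransferases made up 31.3% to 35.7% of the 47 genes' CPM in NC and 13.1% to 26.2% in HFD.

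The Ugt2b genes, whose enzymes glucuronidate steroids, bile acids and many drugs, lie in a cluster on chromosome 5. All 7 were lower in every HFD library than in any NC library, and 4 of them passed the test. Ugt2b5, the most abundant, was at 743, 1048 and 862 CPM in NC 2, 4 and 5 and at 409, 523 and 358 CPM in HFD 1, 2 and 3. It fell by 1.04 on the log2 scale (SE 0.22, edgeR adjusted p = 0.013). Ugt2b1 (chr5:86916638-86926530, minus strand, mm10) was at 549, 629 and 539 CPM in NC and 159, 224 and 146 CPM in HFD, and fell by 1.70 (SE 0.26, edgeR adjusted p = 0.0038).

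The lowest HFD values relative to NC belonged to Ugt2b38, with 39.7, 39.6 and 70.8 CPM in NC and 2.06, 7.73 and 0.758 CPM in HFD. The fitted log2 change was -3.85 (SE 0.77, edgeR adjusted p = 0.011). Ugt2b37, a weakly expressed relative, was at 2.38, 3.61 and 6.19 CPM in NC and 0.895, 1.33 and 0.658 CPM in HFD, a log2 change of -2.09 (SE 0.41, edgeR adjusted p = 0.0099). Ugt2b36 and Ugt2b34, next to Ugt2b5 in abundance, did not pass. Ugt2b36 was at 573, 645 and 686 CPM in NC and 437, 555 and 370 CPM in HFD, and Ugt2b34 at 560, 680 and 523 CPM in NC and 309, 466 and 243 CPM in HFD. Their log2 changes were -0.48 (SE 0.24, edgeR adjusted p = 0.17) and -0.79 (SE 0.28, edgeR adjusted p = 0.066).

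In coding sequence Ugt2b38 is 97.0% identical to Ugt2b5, and Ugt2b37 is 94.7% identical to it, so reads may have been split between these genes by the authors' counting and their single values are uncertain. With the single-gene counts of the Ugt2b genes summed, the total fell by 0.93 on the log2 scale (SE 0.24, edgeR adjusted p = 0.026). The sum does not depend on how reads were split, but it does not restore reads given to no gene. Leaving out HFD 1 ended the calls of Ugt2b5, Ugt2b37 and Ugt2b38 (adjusted p = 0.068, 0.051 and 0.059), as did leaving out HFD 3 for Ugt2b5 and Ugt2b37 (0.073 and 0.057) and NC 4 for Ugt2b5 (0.060). Ugt2b1 stayed called without each of the 12 libraries.

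Ugt2b5, Ugt2b37 and Ugt2b38 are also alike in front of their start sites, and their windows are shown because these 3 genes fell together. The 250 bases before each RefSeq start (GRCm38.p6, minus strand) lie at chr5:87140341-87140590 for Ugt2b5, chr5:87254789-87255038 for Ugt2b37 and chr5:87424204-87424453 for Ugt2b38. Capitals mark bases inside runs of 12 or more that all 3 windows hold, which cover 133 of the 250 bases in each. The likeness did not follow the calls. With the windows of Ugt2b1, which also fell, and Ugt2b36, which did not pass, added, the 5 windows held 0 bases in shared runs of 8 or more. The Ugt2b36 window by itself holds part of the last marked run. Any part of these windows in the changes was not tested.
Ugt2b5: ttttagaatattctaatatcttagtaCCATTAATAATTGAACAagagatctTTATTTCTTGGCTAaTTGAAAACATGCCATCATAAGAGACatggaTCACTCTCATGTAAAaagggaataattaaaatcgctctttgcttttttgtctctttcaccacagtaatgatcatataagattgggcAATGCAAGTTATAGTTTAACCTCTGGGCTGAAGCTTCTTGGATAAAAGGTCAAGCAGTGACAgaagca
Ugt2b37: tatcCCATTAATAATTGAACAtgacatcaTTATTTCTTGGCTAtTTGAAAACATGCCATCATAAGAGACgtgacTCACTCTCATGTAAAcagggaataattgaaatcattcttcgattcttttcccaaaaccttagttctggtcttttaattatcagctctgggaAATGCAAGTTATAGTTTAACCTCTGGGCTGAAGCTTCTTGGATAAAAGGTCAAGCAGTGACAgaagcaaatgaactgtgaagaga
Ugt2b38: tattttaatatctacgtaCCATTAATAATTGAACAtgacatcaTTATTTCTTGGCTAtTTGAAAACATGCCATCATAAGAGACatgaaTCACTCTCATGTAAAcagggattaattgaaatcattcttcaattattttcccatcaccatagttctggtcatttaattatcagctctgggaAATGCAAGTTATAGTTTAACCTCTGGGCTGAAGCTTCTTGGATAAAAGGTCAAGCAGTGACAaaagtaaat

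**Figure D2:**
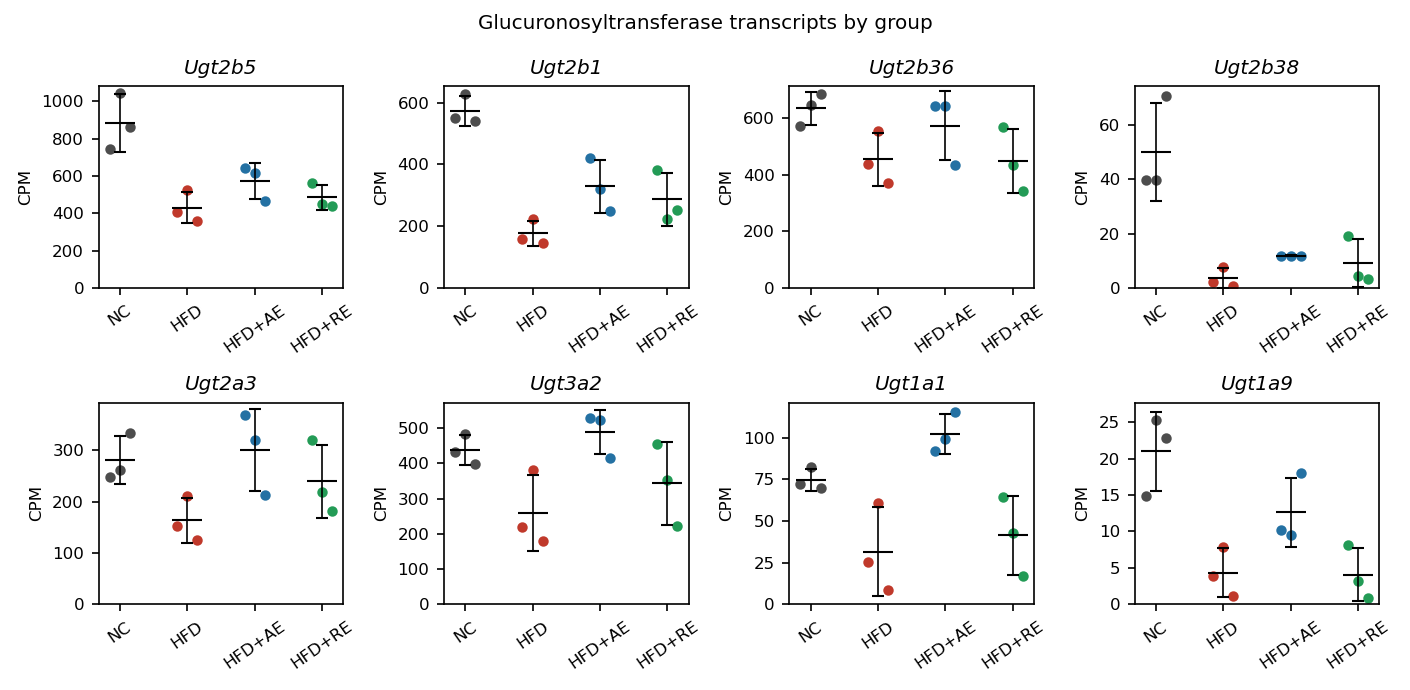
Levels of 8 glucuronosyltransferase transcripts in CPM (linear axes from 0) by group; points are libraries, and the black line and bar are the mean and SD of 3 libraries. Ugt2b5, Ugt2b1 and Ugt2b38 have all HFD points below all NC points, and in Ugt1a1 the HFD points spread from 8.41 to 60.7 CPM.

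The Ugt1a genes of chromosome 1 are a special case for counting. Each has its own first exon, and 9 genes share the same last exons (chr1:88215044-88218997, plus strand, mm10), of which 1311 bases are common to all. A read that lies in the common exons cannot be given to 1 gene, and Ugt1a10 had 0 to 32 counts per library beside 588 to 5910 for Ugt1a1, so these reads were not given to every gene. The counts of 6 of the 8 kept genes therefore rest on bases before the common exons, 385 bases for Ugt1a1 and 809 to 938 for the others. Ugt1a6a has 1920 of its 2142 own bases from the common exons on, and Ugt1a7c 998 of 1915.

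In HFD the 6 genes counted on bases before the common exons had negative log2 changes, from -2.43 to -0.39, and 2 of them fell. Ugt1a5 was at 27.9, 16.8 and 23.7 CPM in NC and 3.83, 7.29 and 1.69 CPM in HFD, a log2 change of -2.43 (SE 0.46, edgeR adjusted p = 0.0084), and it stayed called without each of the 12 libraries. Ugt1a9, which glucuronidates phenols and many drugs, was at 14.9, 25.2 and 22.8 CPM in NC and 3.85, 7.91 and 1.22 CPM in HFD, a log2 change of -2.29 (SE 0.68, edgeR adjusted p = 0.040). Neither gene's groups overlapped. The Ugt1a9 call was lost without each of 7 libraries, with adjusted p of 0.069, 0.11 and 0.074 without NC 2, 4 and 5, 0.14 and 0.15 without HFD 1 and 3, and 0.054 and 0.053 without HFD+AE 1 and 2.

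Ugt1a1, the bilirubin glucuronosyltransferase, had 71.8, 82.2 and 69.6 CPM in NC and 25.2, 60.7 and 8.41 CPM in HFD. Every HFD library was below every NC library, but HFD varied widely and the change of -1.25 (SE 0.55) did not pass (edgeR adjusted p = 0.13). Ugt1a6a and Ugt1a7c, the genes with own bases from the common exons on, were the only glucuronosyltransferases with positive log2 changes, 0.63 (SE 0.23, edgeR adjusted p = 0.082) and 0.28 (SE 0.30, edgeR adjusted p = 0.52). Ugt1a6a is 98.4% identical in coding sequence to Ugt1a6b, whose log2 change was -1.60 (SE 0.60, edgeR adjusted p = 0.083). With the single-gene counts of the Ugt1a genes summed, Ugt1a8 included, the total fell by 1.21 (SE 0.37, edgeR adjusted p = 0.043). Such a sum does not restore reads of the common exons that were given to no gene.

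The ratio of the Ugt1a6a to the Ugt1a1 level, which restates these levels for each library, was 0.111 to 0.241 in NC, 0.266 to 2.71 in HFD, 0.122 to 0.173 in HFD+AE and 0.266 to 1.26 in HFD+RE, and it was highest in HFD 3. Separate measures of the RNA did not overlap between NC and HFD, while some of them split inside the exercised groups, where HFD+AE 3 or HFD+RE 3 differed from the other libraries. The share of counts on the mitochondrial ribosomal RNA genes was 0.708% to 0.924% in NC, 1.76% to 3.26% in HFD, 0.771% to 0.867% in HFD+AE and 0.685% to 1.71% in HFD+RE. The rank correlation between exon length and a library's deviation from the gene's mean was taken across the 18305 genes tested. It was 0.09 to 0.21 in NC, -0.29 to -0.15 in HFD, -0.03 to 0.30 in HFD+AE and -0.31 to 0.23 in HFD+RE. Within HFD+RE it was 0.23 in HFD+RE 3 and -0.29 and -0.31 in HFD+RE 4 and 5. The same correlation was computed with a gene's GC content instead of its length, for the 98.1% of tested genes with a GC value. It ranged from -0.22 to -0.14 for NC libraries, -0.07 to 0.06 for HFD, -0.30 to 0.50 for HFD+AE and -0.23 to 0.35 for HFD+RE. It was highest in HFD+AE 3, at 0.50 beside -0.30 and -0.25 in HFD+AE 1 and 2. With the length trend removed in the fit, 10 of the 47 genes were called, among them all 7 that fell, beside 14% of all genes. With length and GC trends both removed, 14 were called, beside 18.8% of all genes. There Ugt1a5 stayed called, Ugt1a9 was not (log2 change -2.34, edgeR adjusted p = 0.054) and Ugt1a6a was called as higher. Because these RNA measures separated NC from HFD, RNA quality and diet cannot be told apart for any of the 47 genes. Beyond these fits the part of RNA quality in the Ugt1a values, or in those of the other genes, was not tested.

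**Figure D3:**
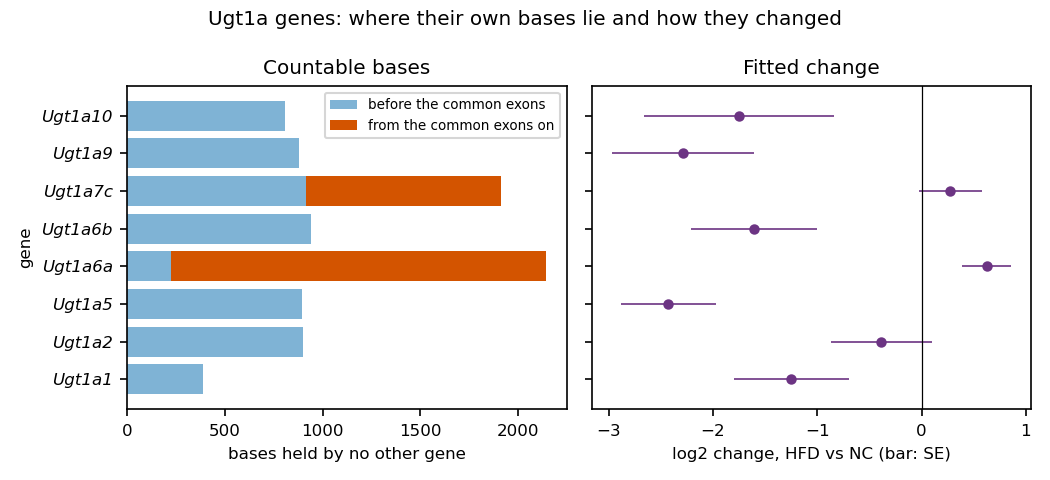
Left, bases of each kept Ugt1a gene that no other gene's exons hold, split into those before the common exons (blue) and those from the common exons on (orange). Right, log2 change in HFD against NC with its SE; Ugt1a6a and Ugt1a7c, the 2 genes with orange bases, are the 2 with positive values.

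The antioxidant response element core TGACNNNGC, a motif bound by the oxidative stress factor NRF2, was searched on both strands of the 250 bases before RefSeq starts and was in 10.2% of 32851 windows of all genes. Among the 47 genes 41 had a window, and 4 of their 50 windows held it, those of Gsta3, Gstm5, Gstm7 and Mgst1.

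Of the other glucuronosyltransferases 0 of 3 passed. Ugt2a3 was at 247, 261 and 334 CPM in NC and 153, 211 and 126 CPM in HFD, a log2 change of -0.78 (SE 0.28, edgeR adjusted p = 0.068). Ugt3a2 and Ugt3a1, whose human counterparts transfer sugars other than glucuronic acid, had log2 changes of -0.75 (SE 0.30, edgeR adjusted p = 0.097) and -0.62 (SE 0.40, edgeR adjusted p = 0.29). Of these, Ugt2a3 and Ugt3a2 had groups that did not overlap.

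Among the glutathione transferases the pi class divided. Gstp1, the main pi-class enzyme known to be higher in male than in female mouse liver, was at 1107, 1053 and 1069 CPM in NC and 364, 318 and 513 CPM in HFD. It fell by 1.43 (SE 0.29, edgeR adjusted p = 0.011), with no overlap of the groups, and of the 12 libraries left out in turn only HFD 1 ended the call (0.058). Gstp3 was at 10.7, 8.61 and 7.78 CPM in NC and 23.0, 15.4 and 26.2 CPM in HFD, again without overlap. It rose by 1.25 (SE 0.39, edgeR adjusted p = 0.044).

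The Gstp3 call was lost without each of 7 libraries, with adjusted p of 0.086, 0.13 and 0.10 without NC 2, 4 and 5, 0.12 and 0.17 without HFD 1 and 3, 0.057 without HFD+AE 2 and 0.053 without HFD+RE 4. Gstp2 had 53.8, 42.7 and 171 CPM in NC and 22.7, 16.0 and 46.4 CPM in HFD, which overlapped, and did not pass (log2 change -1.65, SE 0.66, edgeR adjusted p = 0.100). In coding sequence Gstp1 and Gstp2 are 98.1% identical, so their single values are uncertain, while Gstp3 is 73.2% identical to Gstp2. Summed, the 3 genes fell by 1.39 (SE 0.30, edgeR adjusted p = 0.014), a sum in which Gstp1 was the largest part.

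The windows before the 3 RefSeq starts (GRCm38.p6, minus strand) are shown because Gstp1 fell and Gstp3 rose. They lie at chr19:4037913-4038162 for Gstp1, chr19:4042222-4042471 for Gstp2 and chr19:4059448-4059697 for Gstp3. Capitals mark bases in runs of 12 or more that Gstp1 and Gstp2 share, which cover 154 bases of the Gstp1 and 166 of the Gstp2 window. The Gstp3 window shares 0 such bases with that of Gstp1 and is in lower case. The counted genes reach to chr19:4037985, chr19:4046023 and chr19:4059569 in the same order, so each window overlaps its gene, and that of Gstp2 lies inside it. Any part of these windows in the changes was not tested.
Gstp1: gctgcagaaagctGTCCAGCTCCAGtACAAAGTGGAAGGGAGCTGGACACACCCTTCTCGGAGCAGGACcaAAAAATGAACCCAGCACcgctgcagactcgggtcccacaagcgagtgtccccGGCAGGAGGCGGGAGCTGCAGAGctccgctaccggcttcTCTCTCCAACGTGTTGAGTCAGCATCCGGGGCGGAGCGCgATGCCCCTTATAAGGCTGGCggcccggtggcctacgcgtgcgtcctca
Gstp2: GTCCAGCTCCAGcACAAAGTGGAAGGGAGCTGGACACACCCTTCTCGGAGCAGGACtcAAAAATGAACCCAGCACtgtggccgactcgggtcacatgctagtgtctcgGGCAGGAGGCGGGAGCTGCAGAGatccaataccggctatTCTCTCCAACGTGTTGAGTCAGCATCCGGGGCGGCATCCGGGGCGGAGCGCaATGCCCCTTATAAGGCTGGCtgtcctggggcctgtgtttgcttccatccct
Gstp3: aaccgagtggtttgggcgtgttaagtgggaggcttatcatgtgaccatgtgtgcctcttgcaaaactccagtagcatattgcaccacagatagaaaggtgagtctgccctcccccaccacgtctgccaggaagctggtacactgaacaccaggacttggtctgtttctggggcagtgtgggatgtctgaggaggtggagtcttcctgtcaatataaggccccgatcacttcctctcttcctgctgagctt

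Mgst3 (chr1:167371966-167393841, minus strand, mm10), a microsomal enzyme with glutathione transferase and peroxidase activity, was at 7.86, 7.96 and 10.5 CPM in NC and 38.7, 21.0 and 36.0 CPM in HFD. All HFD values were above all NC values, and the gene rose by 1.86 (SE 0.37, edgeR adjusted p = 0.011; without NC 4, 0.051). The more abundant Mgst1 was at 2210, 2044 and 2306 CPM in NC and 2598, 2907 and 2052 CPM in HFD, which overlapped (log2 change 0.20, SE 0.21, edgeR adjusted p = 0.51). Gsta3, an alpha-class enzyme known for conjugating aflatoxin epoxide in mice, was at 1386, 1564 and 1522 CPM in NC and 1614, 1716 and 1691 CPM in HFD. Its groups did not overlap, but the change of 0.17 (SE 0.19, edgeR adjusted p = 0.55) did not pass.

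Gsta1 rose by 2.98 (SE 0.94, edgeR adjusted p = 0.049), but with 0.688, 0.50 and 3.14 CPM in NC and 7.36, 2.51 and 24.9 CPM in HFD its groups overlapped and HFD 3 carried most of the level. Without HFD 3 the log2 change was 1.76 with adjusted p = 0.27, and the call was also lost without NC 2 or NC 4 (both 0.15), HFD 1 (0.097), HFD+AE 1, 2 or 3 (0.066, 0.062 and 0.063) and HFD+RE 5 (0.056). Gsta1 is 97.6% identical in coding sequence to Gsta2, whose log2 change was 0.22 (SE 0.53, edgeR adjusted p = 0.79). HFD 3 was also highest for Gstm1, a mu-class enzyme, with 4556 CPM beside 1626 and 950 CPM in HFD 1 and 2 and 1153, 1252 and 1410 CPM in NC. The Gstm1 change of 0.90 (SE 0.53) did not pass (edgeR adjusted p = 0.24), nor did any other of the 8 Gstm genes. The pseudogene Gstm2-ps1, counted among the 8, was likewise highest in HFD 3, with 39.3 CPM beside 16.4 and 8.38 CPM in HFD 1 and 2.

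The theta-class genes, whose enzymes act on small halogenated compounds and peroxides, had positive log2 changes of 0.68 to 0.84 that did not pass. Gstt1 was at 159, 172 and 169 CPM in NC and 302, 244 and 322 CPM in HFD, without overlap (log2 change 0.80, SE 0.28, edgeR adjusted p = 0.066).

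**Figure D4:**
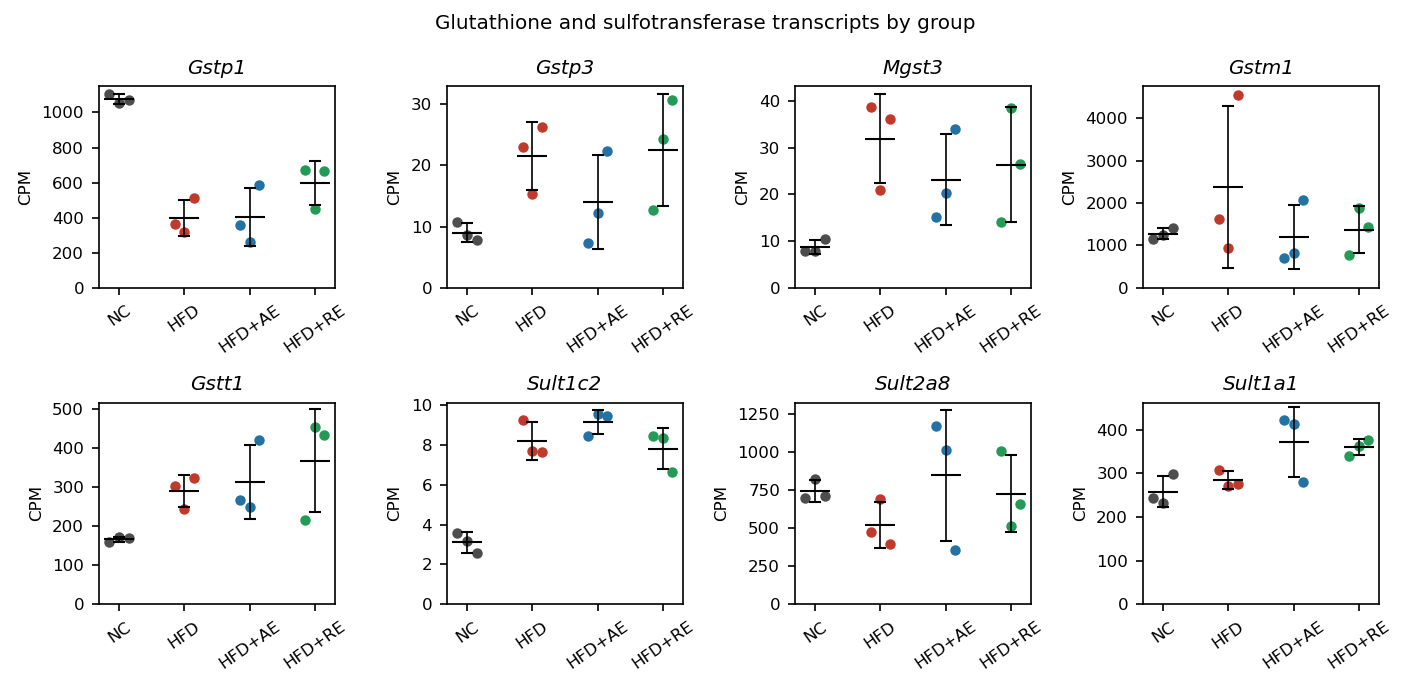
Levels of 5 glutathione transferase and 3 sulfotransferase transcripts in CPM (linear axes from 0) by group; points are libraries, and the black line and bar are the mean and SD of 3 libraries. Gstp1 and Sult1c2 separate NC from the 3 high-fat groups, and HFD 3 is the high point for Gstm1 at 4556 CPM.

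Of the sulfotransferases, Sult1c2 (chr17:53829637-53846339, minus strand, mm10) gave the smallest adjusted p of the 47 genes. It was at 3.59, 3.2 and 2.55 CPM in NC and 9.26, 7.67 and 7.62 CPM in HFD, without overlap. It rose by 1.4 (SE 0.20, edgeR adjusted p = 0.0025) and stayed called without each of the 12 libraries. Sult3a1, an amine sulfotransferase that is higher in female than in male mouse liver, had 4, 0 and 1 counts in NC and 16, 12 and 21 counts in HFD. The fit called it as higher in HFD (edgeR adjusted p = 0.026), but it was kept only through its HFD counts, at so few counts its fitted log2 change of 3.25 (SE 0.84) depends on the prior count, and the call was lost without NC 4 or 5 (0.093 and 0.076) or HFD 1 or 3 (0.087 and 0.097).

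The 3 most abundant sulfotransferases did not pass. Sult2a8 was at 696, 825 and 712 CPM in NC and 475, 690 and 396 CPM in HFD, a log2 change of -0.52 (SE 0.38, edgeR adjusted p = 0.35). Sult1a1 was at 244, 232 and 298 CPM in NC and 308, 272 and 275 CPM in HFD (0.15, SE 0.19, edgeR adjusted p = 0.62). Sult1d1, which sulfates catecholamines, was at 124, 96.4 and 209 CPM in NC and 138, 136 and 134 CPM in HFD (-0.07, SE 0.34, edgeR adjusted p = 0.89). Of these only Sult2a8 had groups that did not overlap. Exons of Sult1a1, Gstm5 and the Ugt1a genes share bases with a gene on the opposite strand, and those of Gstt3 with Gm20441 on the same strand. The strand setting is not given, so reads on such bases may be missing or may come from the partner. Sult1e1, the oestrogen sulfotransferase, had 2, 4 and 16 counts in NC and 18, 24 and 37 counts in HFD, without overlap, and did not pass (log2 change 1.99, SE 0.71, edgeR adjusted p = 0.070).

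**Figure D5:**
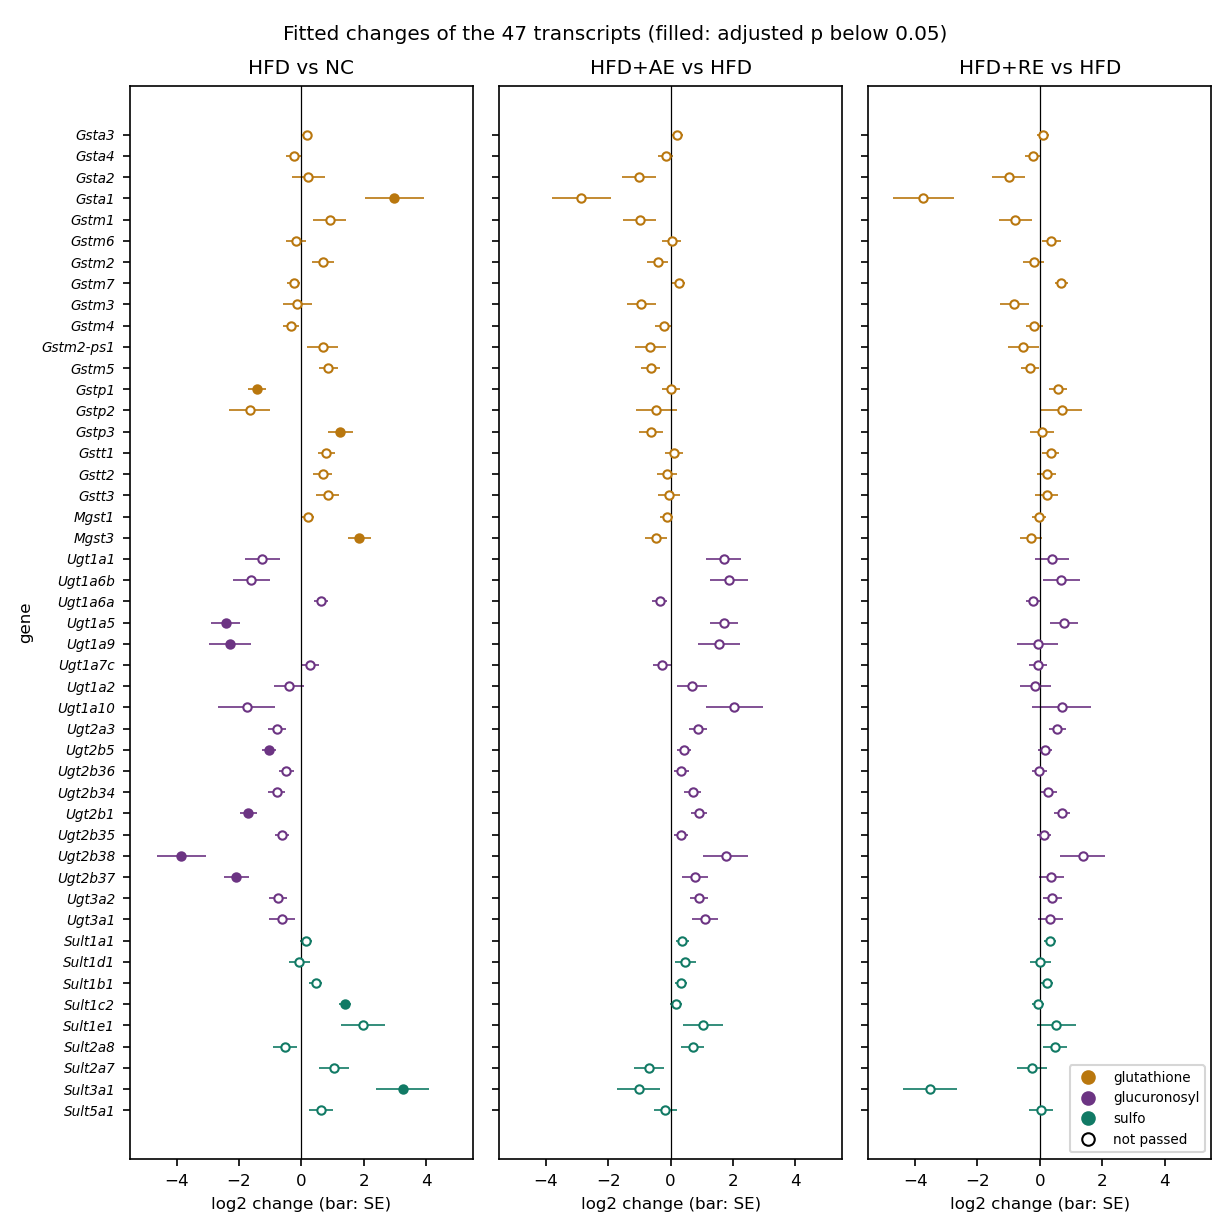
Log2 changes of the 47 transcripts with their SE for HFD against NC, HFD+AE against HFD and HFD+RE against HFD, coloured by class; filled points had an edgeR adjusted p below 0.05. In HFD against NC 12 points are filled and 16 of 18 glucuronosyltransferase points are below 0, and in HFD+AE against HFD 0 points are filled and 16 of 18 glucuronosyltransferase points are above 0.

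The second comparison asked what AE added on the high-fat diet. In HFD+AE against HFD 0 of the 47 genes were called by edgeR, beside 0.0492% of all genes, and 12 of the 47 had an unadjusted p under 0.05, beside 26.4% of all genes. The glucuronosyltransferases made up 11 of those 12 and had positive log2 changes in 16 of 18 genes, beside 50.2% of all genes, with a median of 0.89, while the median over all genes was 0.00. Groups did not overlap for 16 of the 47 genes, beside 32% of all genes. HFD+AE and HFD+RE share the HFD libraries as their control, and so do HFD against NC and HFD+AE against HFD, so a low or high HFD library moves these comparisons together. The summed level of 6 hepatocyte markers was also higher in every HFD+AE library (103329 to 111508 CPM) than in any HFD library (58041 to 82083 CPM), with 0 of the 6 called, and the part of this in the glucuronosyltransferase values was not tested.

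Ugt1a5 had the smallest adjusted p, 0.064, with 8.77, 20.8 and 11.8 CPM in HFD+AE 1, 2 and 3 (log2 change 1.70, SE 0.45, edgeR). Ugt2b1 was at 419, 319 and 248 CPM in HFD+AE, each above the HFD libraries (0.90, SE 0.26, edgeR adjusted p = 0.073). Ugt1a1 was at 92.1, 99.4 and 115 CPM, also above all 3 HFD libraries (1.70, SE 0.56, edgeR adjusted p = 0.091). Ugt2b5, the most abundant gene of the class, was at 645, 616 and 463 CPM, which overlapped HFD (0.42, SE 0.22, edgeR adjusted p = 0.24).

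The count of called members changed with the setting, and so did the share over all genes. DESeq2 called 5 of the 47, beside 12.1% of all genes, all higher in HFD+AE (Ugt1a1, Ugt1a5, Ugt2a3, Ugt2b1 and Ugt3a2), and without HFD 2 edgeR called 10, beside 8.93% of all genes, of which 9 were glucuronosyltransferases that rose and the other was Gsta1, which fell. Without HFD+AE 3 and HFD+RE 3, 13 were called, 8 higher and 5 lower, beside 22.5% of all genes, and without HFD+RE 3 alone 3 were called, Ugt1a5, Ugt2a3 and Ugt2b1, beside 10.2%. HFD 2 had the highest level of the 3 HFD libraries for all 8 genes in the plot of glucuronosyltransferase levels, with Ugt1a1 at 60.7 CPM beside 25.2 and 8.41 CPM.

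In the other classes 1 gene, Gsta1, had an unadjusted p under 0.05. Gstp1 was at 360, 264 and 587 CPM and overlapped HFD (0.02, SE 0.29, edgeR adjusted p = 0.98). Gsta1 was at 1.96, 1.06 and 1.75 CPM, below the HFD libraries (-2.86, SE 0.94, edgeR adjusted p = 0.093). Sult2a8 was at 1171 and 1013 CPM in HFD+AE 1 and 2 and at 356 CPM in HFD+AE 3, on either side of HFD (0.70, SE 0.38, edgeR adjusted p = 0.25). Sult1d1 was split in the same way, with 228, 244 and 95.7 CPM.

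The third comparison asked the same of RE. In HFD+RE against HFD 0 of the 47 genes were called by edgeR, beside 0.0109% of all genes, and 0 by DESeq2. The unadjusted p was under 0.05 for 4 of the 47, beside 8.77% of all genes, and the groups did not overlap for 4, beside 14.1%. Of the 18 glucuronosyltransferases 13 had positive log2 changes, beside 54.8% of all genes, with a median of 0.35, while the median over all genes was 0.04. Without HFD+AE 3 and HFD+RE 3, edgeR again called 0 of the 47 genes.

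Ugt2b1 was at 382, 223 and 254 CPM in HFD+RE 3, 4 and 5, which overlapped HFD (0.70, SE 0.26, edgeR adjusted p = 0.44). Ugt1a1 was at 64.4, 42.8 and 16.8 CPM (0.40, SE 0.54, edgeR adjusted p = 0.86). Library HFD+RE 3 was the highest of its group for Ugt2b5, Ugt2b1, Ugt2b36, Ugt2b38, Ugt2a3, Ugt3a2, Ugt1a1 and Ugt1a9. Gstm7, a mu-class gene, was at 44, 61.2 and 59.8 CPM in HFD+RE, above the 34.7, 30.5 and 37.0 CPM of HFD (0.69, SE 0.22, edgeR adjusted p = 0.34). Sult3a1 had 0, 2 and 2 counts in HFD+RE, below the HFD counts, and did not pass (edgeR adjusted p = 0.28).

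Set directly against each other, the 2 forms of exercise gave 0 calls among the 47 genes by edgeR, beside 0% of all genes, and 0 by DESeq2, with 3 genes at an unadjusted p under 0.05, beside 8.02% of all genes. Groups did not overlap for 6 of the 47, beside 11.3%. Glucuronosyltransferases had negative log2 changes in 16 of 18 genes in HFD+RE against HFD+AE (median -0.42), and glutathione transferases positive changes in 17 of 20 (median 0.21), beside 51.2% of all genes. Ugt1a1 was at 92.1 to 115 CPM in HFD+AE and 16.8 to 64.4 CPM in HFD+RE, without overlap (-1.31, SE 0.55, edgeR adjusted p = 0.61). Without HFD+AE 3 and HFD+RE 3, 13 of the 47 genes were called, 9 higher and 4 lower in HFD+RE, beside 22.1% of all genes. Those 2 libraries were chosen on these data, so this count is no independent check.

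Against NC, both exercised groups were compared as well, with the same NC libraries in each comparison. In HFD+AE 2 of the 47 genes were called, 4.26%, beside 1.38% of all genes (0.901% rose and 0.481% fell), and groups did not overlap for 15, beside 21.8%. Sult1c2 was at 8.46, 9.55 and 9.45 CPM and rose by 1.56 (SE 0.20, edgeR adjusted p = 0.0044), and Gstp1 fell by 1.42 (SE 0.29, edgeR adjusted p = 0.034), neither overlapping NC. The Gstp1 call was lost without NC 2, 4 or 5 (0.085, 0.11 and 0.060), HFD 1 (0.060) or HFD+AE 1 or 2 (0.10 and 0.13), while Sult1c2 stayed called without each of the 12 libraries. Without HFD+AE 3 and HFD+RE 3, 5 members were called, beside 1.66% of all genes. Of the 18 glucuronosyltransferases 0 were called, 9 had positive log2 changes, beside 49.2% of all genes, and the median was -0.04, and Ugt2b38, at 11.9, 11.9 and 11.6 CPM, lay below all NC libraries (-2.09, SE 0.71, edgeR adjusted p = 0.19).

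In HFD+RE 6 of the 47 genes were called against NC, 12.8%, beside 3.96% of all genes (2.67% rose and 1.28% fell). Groups did not overlap for 20, beside 26.1%. Sult1c2, at 8.45, 8.34 and 6.64 CPM, rose by 1.33 (SE 0.20, edgeR adjusted p = 0.0053) and stayed called without each of the 12 libraries. Mgst3, at 14, 38.5 and 26.5 CPM, rose by 1.59 (SE 0.37, edgeR adjusted p = 0.034), and Gstt1, at 216, 453 and 434 CPM, rose by 1.14 (SE 0.28, edgeR adjusted p = 0.040). Ugt2b37, at 0.927, 1.25 and 1.51 CPM, fell by 1.72 (SE 0.40, edgeR adjusted p = 0.033). Ugt2b5, at 564, 451 and 441 CPM, fell by 0.87 (SE 0.22, edgeR adjusted p = 0.046), and Ugt2b1 fell by 1.0 (SE 0.26, edgeR adjusted p = 0.049).

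None of these 6 genes overlapped NC. Of the 18 glucuronosyltransferases 2 had positive log2 changes, beside 51% of all genes. Without NC 4, NC 5, HFD 1, HFD+RE 4 or HFD+RE 5 only Sult1c2 of the 6 was called, with adjusted p for the other 5 of 0.087 to 0.18, 0.060 to 0.10, 0.052 to 0.079, 0.12 to 0.20 and 0.078 to 0.18. Without NC 2 the calls of Mgst3, Gstt1, Ugt2b1 and Ugt2b5 were lost (0.066 to 0.11), and without HFD 3, HFD+AE 1 or HFD+AE 2 those of Gstt1, Ugt2b1 and Ugt2b5 (0.050 to 0.074). Without HFD+RE 3, the library that stood apart, 13 members were called, beside 21% of all genes, and without HFD+AE 3 as well, 20, beside 31.7%. Gstp1 was at 674, 452 and 665 CPM in HFD+RE, below all NC libraries, and did not pass (-0.85, SE 0.29, edgeR adjusted p = 0.10).

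The genes that supply the cosubstrates were read from lists. For scale, 15.6% of all genes tested were called in HFD against NC, 8.38% higher and 7.19% lower, and no list was tested as a set. In HFD against NC, 1 of 8 tested genes of glutathione supply rose and 1 fell: Ggct, a glutamylcyclotransferase of glutathione breakdown, rose by 1.32 (SE 0.22, edgeR adjusted p = 0.0049), and Cbs, which leads from homocysteine towards cysteine, fell by 1.03 (SE 0.22, edgeR adjusted p = 0.013). Of the 6 genes of UDP-glucuronic acid supply 0 were called in HFD against NC. Ugdh, which makes UDP-glucuronic acid, was at 149, 188 and 164 CPM in NC and 154, 167 and 166 CPM in HFD, and fell in HFD+RE against NC to 98.6, 107 and 96.7 CPM (-0.73, SE 0.17, edgeR adjusted p = 0.033). Of the 7 PAPS genes 2 rose and 2 fell in HFD. Slc13a4, a sulfate carrier, rose by 1.66 (SE 0.40, edgeR adjusted p = 0.021), and Slc35b2, which carries PAPS into the Golgi, rose by 0.77 (SE 0.23, edgeR adjusted p = 0.040). Papss1, a PAPS synthase, fell by 1.09 (SE 0.31, edgeR adjusted p = 0.034), and Bpnt1, which clears the product of PAPS use, fell by 1.0 (SE 0.30, edgeR adjusted p = 0.042).

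Of 7 export and deconjugation genes tested 0 were called in HFD against NC, beside 15.6% of all genes. Of 19 other conjugating enzymes 2 rose and 0 fell, beside 8.38% and 7.19% of all genes. The risers were Gstk1, the mitochondrial and peroxisomal kappa-class transferase (1.02, SE 0.21, edgeR adjusted p = 0.012), and Nat1, an N-acetyltransferase (1.13, SE 0.25, edgeR adjusted p = 0.016). Of 16 regulators 2 rose and 2 fell in HFD, again beside 8.38% and 7.19% of all genes. Hnf4a was at 1048, 980.2 and 1114 CPM in NC and 495, 716 and 545 CPM in HFD (-0.84, SE 0.19, edgeR adjusted p = 0.017), and Foxa1 fell by 1.22 (SE 0.28, edgeR adjusted p = 0.018). Nr1i3, the receptor CAR, rose by 0.73 (SE 0.17, edgeR adjusted p = 0.018), and Ppara by 0.55 (SE 0.18, edgeR adjusted p = 0.049). In HFD+AE against HFD 0 of these 16 were called, beside 0.0492% of all genes.

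Among 9 genes read as outputs of these regulators 2 rose and 4 fell in HFD, beside 8.38% and 7.19% of all genes. The 3 named below were lower in HFD, and the 2 that rose are not named here. Hsd3b5, a steroid dehydrogenase higher in male than in female mouse liver, was at 211, 191 and 89.2 CPM in NC and 0.272, 0.422 and 0.343 CPM in HFD. It was at 77.0, 26.6 and 17.4 CPM in HFD+AE and 124, 25.2 and 112 CPM in HFD+RE, and was the only listed gene called against HFD in either exercised group (edgeR adjusted p = 0.011 and 0.0030). Cyp3a11, a target of the receptor PXR, fell in HFD by 3.13 (SE 0.38, edgeR adjusted p = 0.0011) and Cyp7b1 by 2.77 (SE 0.36, edgeR adjusted p = 0.0016).

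Markers of cell types were read in HFD against NC too, where 15.6% of all genes were called (8.38% rose and 7.19% fell) and 46% had groups that did not overlap. Of 6 hepatocyte markers 2 fell and 0 rose, and their sum was 104588 to 122365 CPM in NC and 58041 to 82083 CPM in HFD, with none at 0 in any library. Of 6 stellate cell markers 3 rose, with sums of 126 to 145 CPM in NC and 237 to 317 CPM in HFD, and of 6 lymphocyte markers 3 rose (median 1.66), with sums of 10.7 to 24.2 CPM and 18.4 to 34.1 CPM, which overlapped. Of 5 endothelial markers 1 fell (median -0.97), and their sum was 144 to 176 CPM in NC and 66.9 to 104 CPM in HFD, without overlap. Of 5 erythroid markers 1 fell, but the median was 0.78 and the sums, 159 to 301 CPM in NC and 273 to 493 CPM in HFD, overlapped. Of the 6 Kupffer cell markers 0 were called, with a median of -1.13 and overlapping sums of 166 to 274 CPM and 67.0 to 183 CPM, and of 5 cholangiocyte markers tested 0 were called (median -0.32). In HFD+AE against HFD 0 markers of any of these 7 lists were called, beside 0.0492% of all genes. Medians there were 0.55 for hepatocyte, 0.86 for endothelial, 0.85 for Kupffer cell, 0.20 for cholangiocyte, -0.22 for stellate, -1.90 for lymphocyte and -1.19 for erythroid markers. In whole liver fewer cells of a type and less RNA per cell cannot be told apart, and the part of these marker shifts in the transferase values was not tested.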

How the data were processed

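The authors deposited 1 table of raw counts per gene for 12 mouse liver RNA-seq libraries; per the submitters' processing notes the tools were fastp, HISAT2 2.2.1, featureCounts 2.0.6 and DESeq2 1.40.1 with genome build mm10. Strand setting, annotation release and the handling of multi-mapping reads: not given in the sources used here. Of the counts from 1 to 20, 66.7% to 76.6% per library were even, and whether the mates of a read pair were counted separately is not stated.

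The members and gene lists were chosen with earlier results of these data known. A gene of the regulator list, and a motif search tied to it, are not reported here, and the list's counts leave that gene out. All 12 libraries were fitted together in edgeR 4.0.16 (R 4.3.3; quasi-likelihood F test, TMM scaling, filterByExpr by group, 18305 genes), as 6 comparisons of group means with Benjamini-Hochberg adjustment at 0.05. The SE is the log2 change divided by the square root of F. The script was tested on simulated data. Values by library are given for the 3 most abundant members of each class and for called members, up to 8 per comparison by smallest adjusted p, and up to 3 called genes per list; other members named were chosen after their values were seen. Alternatives were DESeq2 1.42.0, RLE scaling, other filters, removal of length and GC trends, the 2 compared groups alone, a test against a 1.5-fold change, subfamily sums and leaving out libraries. No 2 libraries of a group agreed within sampling noise. Upstream windows and their build are from RefSeq's GRCm38.p6 table, and coding identity from GENCODE M21 transcripts.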

Additional observations from a re-analysis of the deposited data

How the results depend on the processing

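Of the 20 called results on single members, 19 kept their direction under every alternative run; the exception was Gstp3 in HFD against NC, which became -1.39 when its subfamily was summed, a sum made mostly of Gstp1 counts. The calls of 5 of the 20 (Ugt1a5, Ugt2b1 and Sult1c2 in HFD against NC, and Sult1c2 in both exercised groups against NC) were kept without each of the 12 libraries. Leaving out 1 library at a time gave 4 to 18 called members in HFD against NC, 0 to 10 in HFD+AE against HFD, 1 to 6 in HFD+AE against NC and 1 to 13 in HFD+RE against NC, and 0 in HFD+RE against HFD and against HFD+AE. Over all genes the same gave 411 to 4462, 0 to 1930, 44 to 373, 112 to 3983, 2 to 53 and 0 to 2 calls, in that order of comparisons, beside 2851, 9, 253, 724, 2 and 0 with all libraries.

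DESeq2 called 18 members in HFD against NC, of which 8 rose and 10 fell. It called 5, 8 and 14 members in HFD+AE against HFD, HFD+AE against NC and HFD+RE against NC. Over all genes it called 4364 in HFD against NC, 843 in HFD+AE against NC and 2063 in HFD+RE against NC. It called 2211 genes in HFD+AE against HFD, 209 in HFD+RE against HFD and 32 in HFD+RE against HFD+AE. With no low-count filter 3 members were called in HFD+AE against HFD and 4 in HFD+AE against NC, and 953, 43, 2 and 408 genes in HFD+AE against HFD, HFD+RE against HFD, HFD+RE against HFD+AE and HFD+AE against NC. With only the compared groups fitted, 20 members and 4928 genes were called in HFD against NC, 649 genes in HFD+AE against HFD, 82 genes in HFD+AE against NC, and 1 member and 110 genes in HFD+RE against NC. Removing the length trend gave 75 genes in HFD+AE against HFD. Removing length and GC trends gave 2, 6 and 12 members in HFD+AE against HFD, HFD+AE against NC and HFD+RE against NC, with 587, 518 and 1310 genes, and 8 genes in HFD+RE against HFD. Without HFD+AE 3 and HFD+RE 3, 22, 13, 13, 5 and 20 members were called in HFD against NC, HFD+AE against HFD, HFD+RE against HFD+AE, HFD+AE against NC and HFD+RE against NC, and 6258, 4253, 5, 4170 and 5989 genes in HFD against NC, HFD+AE against HFD, HFD+RE against HFD, HFD+RE against HFD+AE and HFD+RE against NC. Against a 1.5-fold change 6, 1 and 1 members passed in HFD, HFD+AE and HFD+RE against NC, with 445, 40 and 86 genes, and 1 gene in HFD+AE against HFD. The cause of these shifts was not tested.

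The replicate numbers, which HFD and HFD+AE share, gave correlations of -0.12, 0.11 and 0.09 between same-numbered libraries' deviations, so the numbers were not taken to pair samples. A replicate block in that comparison called 0 members and 2 genes.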
